A study of Homo sapiens with 9 samples.

Results

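The SWI/SNF complex is a group of proteins that uses the energy of ATP to slide or evict nucleosomes, the spools around which DNA is wound. The genes described here encode 10 of its subunits, taken by symbol from a table of 52158 genes: SMARCA4, SMARCA2, SMARCB1, SMARCC1, SMARCC2, SMARCD3, ARID1A, ARID1B, PBRM1 and BRD7. All 10 were found in the table and all 10 reached 5 CPM (counts scaled to a common library total) in at least 2 libraries. RNA came from 9 established human oesophageal adenocarcinoma lines, with gastric cardia adenocarcinoma named as the source tissue, each kept in ordinary culture without treatment and passaged at 80% confluency. The libraries are labelled ESO-26, OE33, OE19, SK-GT-4, ESO-51, FLO-1, JH_EsoAd1, OACP4_C and OAC_5.1_C, and each line has 1 column of counts. The design text speaks of 3 technical replicates for each line, without saying how these enter the single column. No difference between lines therefore has a replicate check, no p-value is given, and the intervals printed cover counting error only.

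Each complex carries 1 of a pair of alternative ATPases, SMARCA4 (BRG1) or SMARCA2 (BRM), and a core that includes SMARCC1, SMARCC2, a SMARCD protein and, in BAF and PBAF, SMARCB1. Further subunits define the assemblies: ARID1A or ARID1B mark BAF, while PBRM1, ARID2 and BRD7 mark PBAF. A further assembly, known as non-canonical BAF, contains BRD9 and lacks SMARCB1. Genes of the complex are often mutated in human cancer, loss of SMARCB1 or SMARCA4 defines certain rhabdoid and undifferentiated tumours, and ARID1A is a recurrent mutation target in adenocarcinomas of the oesophagus and stomach.

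Library totals ran from 16801179 counts in ESO-26 to 69881539 in FLO-1. Markers of the labelled cell type varied between libraries: of 11 epithelial marker genes, 11 in ESO-26, 8 in OE33, 6 in JH_EsoAd1, 4 in OE19 and at most 1 elsewhere were at least 2-fold below the median of the other 8 libraries. Of all expressed genes, 8.11% (JH_EsoAd1) to 20.4% (ESO-26) lay that far below in a library. Summed over the list, the epithelial markers gave 170 CPM for ESO-26 and 1217 CPM for OE33, against 4295 to 15238 CPM elsewhere. The adhesion gene EPCAM, a defining epithelial marker, was at 5.13 CPM in the ESO-26 library and 0.189 CPM in that of OE33. Mitochondrial genes took 24.7% of counts in JH_EsoAd1, against 1.48% to 7.04% elsewhere. Blood-cell markers summed to at most 18.6 CPM and endothelial markers to at most 57.8 CPM in any library. The library labelled OE19 held the growth-factor receptor gene ERBB2, which is known to be amplified in that line, at 185 CPM and rank 6 of 9, against 18325 CPM in SK-GT-4 at rank 1. Library names below are therefore the labels the libraries carry and nothing more. Across 12899 expressed genes, ESO-26 and OE33 were each other's closest library (r = 0.76). Levels are CPM scaled by the trimmed mean of M values (TMM), and a level in bulk RNA cannot tell fewer expressing cells from less RNA per cell.

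SMARCB1, SMARCA4 and SMARCA2 held the lowest values of the 10 subunits against their own levels in other libraries. SMARCB1 had no counts in ESO-26. SMARCA4 was low in OE33 alone, and SMARCA2 was lowest in that same library and low in OE19 and ESO-26 too. The promoter stretches of these 3 genes are shown because theirs were the lowest levels. Each is the RefSeq window of 250 bases before to 50 after the most upstream listed start, on GRCh38.p14, on the plus strand, 5' to 3', with CG pairs in capitals. SMARCA4 lies at chr19:10960780-10961079, SMARCA2 at chr9:2015097-2015396 and SMARCB1 at chr22:23786716-23787015.
SMARCA4: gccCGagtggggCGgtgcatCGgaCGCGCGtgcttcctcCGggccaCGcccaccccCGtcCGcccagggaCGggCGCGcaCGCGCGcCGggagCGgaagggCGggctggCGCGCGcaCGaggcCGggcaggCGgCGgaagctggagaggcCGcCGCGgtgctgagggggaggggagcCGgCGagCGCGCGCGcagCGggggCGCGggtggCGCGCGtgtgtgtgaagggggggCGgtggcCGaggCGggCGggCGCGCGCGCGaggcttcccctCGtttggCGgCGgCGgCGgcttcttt
SMARCA2: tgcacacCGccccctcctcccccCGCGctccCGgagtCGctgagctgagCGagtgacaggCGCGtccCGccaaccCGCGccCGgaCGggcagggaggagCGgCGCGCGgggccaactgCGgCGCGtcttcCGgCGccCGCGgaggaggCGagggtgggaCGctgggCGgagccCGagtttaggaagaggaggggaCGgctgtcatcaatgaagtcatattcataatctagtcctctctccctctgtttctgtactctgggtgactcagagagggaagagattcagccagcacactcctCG
SMARCB1: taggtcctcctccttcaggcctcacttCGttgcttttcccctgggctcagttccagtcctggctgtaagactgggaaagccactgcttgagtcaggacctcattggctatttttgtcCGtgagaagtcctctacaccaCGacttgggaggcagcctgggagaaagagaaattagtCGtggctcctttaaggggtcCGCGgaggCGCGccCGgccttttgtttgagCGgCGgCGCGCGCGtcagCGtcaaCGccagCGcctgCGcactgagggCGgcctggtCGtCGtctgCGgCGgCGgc

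The SMARCA4 window held 55 CG pairs, the SMARCA2 window 30 and the SMARCB1 window 25, against a median of 14 over the 35116 RefSeq promoter windows of the same length. The SMARCA4 count lay at percentile 99.7 of those windows. The letters GGGCGG, the GC box bound by Sp1-family factors, were searched on both strands and occurred 5 times in the SMARCA4 window, 2 times in the SMARCA2 window and 1 time in the SMARCB1 window. At least 1 such match was present in 45.0% of all windows. Of the 10 subunit genes, 8 matched the RefSeq promoter table, and SMARCC1 and SMARCC2 did not. These letters describe the reference genome and not the sequence of any line.

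**Figure D1:**
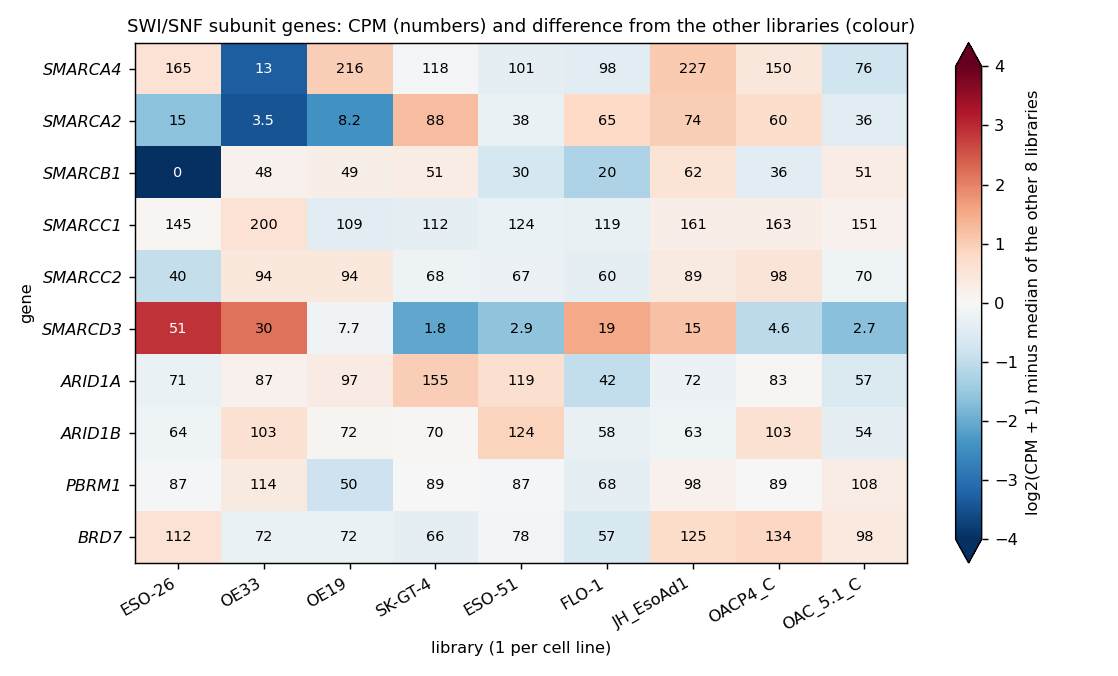
Levels of the 10 subunit genes (rows) in the 9 libraries (columns). Numbers are CPM and the colour is log2(CPM + 1) minus the median of the other 8 libraries, cut off at 4 in either direction. The deep blue cells are SMARCB1 in ESO-26 (0 counts) and SMARCA4 and SMARCA2 in OE33, and SMARCD3 has its reddest cells in ESO-26 and OE33 and paler red ones in FLO-1 and JH_EsoAd1.

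SMARCA4, an ATPase used by BAF, PBAF and non-canonical BAF alike, was scarce in 1 library. It had 12.7 CPM in OE33 (338 counts, Poisson 95% interval 11.4 to 14.2). The other libraries held 227 CPM in JH_EsoAd1, 216 in OE19, 165 in ESO-26, 150 in OACP4_C, 118 in SK-GT-4, 101 in ESO-51, 97.7 in FLO-1 and 76.2 in OAC_5.1_C. OE33 thus lay well outside a group whose own highest and lowest members differed by 1.56 on the log2 scale. The median of the other 8 was 10.5-fold higher than OE33, and the lowest of them, OAC_5.1_C, was 5.98-fold higher. On the log2(CPM + 1) scale OE33 lay at -3.29 against the median of the others. The intervals of JH_EsoAd1 and OE19 overlapped, as did those of ESO-51 and FLO-1, so the order within each of these pairs is not resolved by counting. JH_EsoAd1 was the only library at least 2-fold above the median of the other 8 for SMARCA4 (log2 difference 1.04). The difference was 0.71 when scaled by library size alone and -0.52 in the authors' deposited FPKM. It was under 2-fold in 6 of the 15 alternative settings. JH_EsoAd1 is the library with the largest mitochondrial share, whose part in this value was not tested. The FPKM divides by all counts in the file of a line. Of these 77.3% lie outside the table of counts for JH_EsoAd1, against 25.8% (OE19) to 51.0% (FLO-1) elsewhere.

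SMARCA2, the alternative ATPase, was low in a set of libraries and higher in the rest. The low set comprised OE33 with 3.51 CPM (93 counts, interval 2.83 to 4.30), OE19 with 8.23 CPM and ESO-26 with 14.7 CPM. The other libraries held 88.3 CPM in SK-GT-4, 73.5 in JH_EsoAd1, 64.8 in FLO-1, 60.3 in OACP4_C, 38.4 in ESO-51 and 35.5 in OAC_5.1_C. No value lay between 14.7 and 35.5 CPM, and the intervals of the 3 low libraries did not overlap each other. Against the median of the other 8, SMARCA2 was at -3.45 in OE33, -2.41 in OE19 and -1.65 in ESO-26 on the log2(CPM + 1) scale. SK-GT-4 lay 1.23 above. In the deposited FPKM, with 1 added before the log as for CPM, OE33 stayed past 2-fold (-1.27), while OE19 (-0.95) and ESO-26 (-0.58) did not. The FPKM themselves were 0.156 in OE33, 0.439 in OE19 and 0.863 in ESO-26, against 1.06 (JH_EsoAd1) to 4.24 (SK-GT-4) elsewhere. At such small values the added 1 makes differences smaller, so a difference under 2-fold there does not show similar levels.

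The 3 libraries low in SMARCA2 were also the 3 highest for VIM and ZEB1, genes of mesenchymal cells that encode the filament protein vimentin and a repressor of epithelial genes. VIM had 616 CPM in OE33, 1679 CPM in OE19 and 246 CPM in ESO-26, against at most 22 CPM in the other libraries. ZEB1 had 85.7 CPM in OE33, 55 CPM in OE19 and 61.2 CPM in ESO-26, against at most 9.86 CPM. Both were picked from a list of 8 mesenchymal markers after their values were seen, and the whole list did not single out the same 3. At least 2-fold above the other libraries were 4 of its 8 genes in OE33, 2 in OE19 and 6 in ESO-26, against 7 in JH_EsoAd1, which ranked 2 of 9 for SMARCA2, and 0 to 2 elsewhere. Of all expressed genes, 12% (JH_EsoAd1) to 14.9% (FLO-1) lay that far above in a library. The summed level of the list was 744 CPM in OE33, 1737 CPM in OE19 and 3918 CPM in ESO-26, against 14.6 to 2427 CPM elsewhere. FN1 alone gave 3591 CPM of that sum in ESO-26. CDH2, another defining marker, had 0 counts in OE33 and OE19. The part of these genes in the SMARCA2 levels was not tested.

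The pair of ATPases can be compared only per length. SMARCA4 and SMARCA2 together gave 0.891 CPM per kilobase of the deposited gene length in OE33, against 6.44 (OAC_5.1_C) to 16.7 (JH_EsoAd1) in the other libraries. OE33 was thus the 1 library in which neither ATPase was abundant. In OE19 and ESO-26, where SMARCA2 was also low, SMARCA4 was among the 3 highest levels of the series, and SMARCA2 made up 5.65% of the sum in OE19 and 12.3% in ESO-26. SMARCA2 reached 53.9% of the sum in SK-GT-4 and 51.0% in FLO-1. These 2 shares depend on the length used. The deposited lengths are 20.5 kb for SMARCA4 and 13.0 kb for SMARCA2, whereas the longest protein-coding GENCODE transcripts are 5.79 and 7.06 kb, and with the transcript lengths SMARCA4 exceeded SMARCA2 in all 9 libraries, at 1.64-fold in SK-GT-4 and 1.84-fold in FLO-1. The low sum in OE33 did not depend on that choice: it was 2.70 CPM per kb in OE33, against 18.2 to 49.55 elsewhere. The longest stretch the reference transcripts of the 2 genes share is 18 bases, and none of the 5742 windows of 50 bases in SMARCA4 recurs in SMARCA2.

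**Figure D2:**
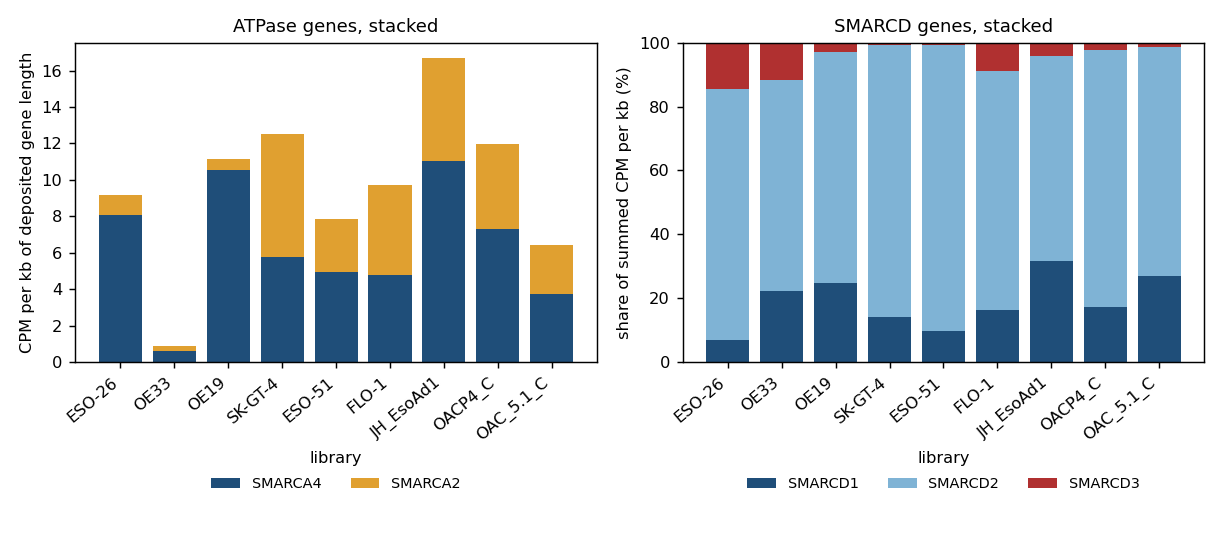
Left, summed CPM per kb of deposited gene length of SMARCA4 and SMARCA2 in each library. Right, shares of SMARCD1, SMARCD2 and SMARCD3 in their summed CPM per kb (%). The ATPase bar of OE33 reaches 0.891, and SMARCD3 takes its largest shares in ESO-26 and OE33.

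SMARCB1 (SNF5 or INI1), the core subunit that anchors the complex on the nucleosome, had 0 counts in ESO-26. At the depth of that library 3 counts correspond to 0.173 CPM, and the upper Poisson 95% limit of 0 counts is 0.213 CPM. The other libraries held 62.2 CPM in JH_EsoAd1, 51.5 in OAC_5.1_C, 51.2 in SK-GT-4, 49.4 in OE19, 48.3 in OE33, 36.5 in OACP4_C, 29.8 in ESO-51 and 20.3 in FLO-1. ESO-26 was the only library without reads. FLO-1, the lowest of the others, lay 117-fold above the 3-count floor of ESO-26 and 95.2-fold above the upper Poisson 95% limit there. FLO-1 itself lay 1.23 below the median of its other 8 on the log2(CPM + 1) scale. OAC_5.1_C, SK-GT-4, OE19 and OE33 had adjoining, overlapping intervals. OE33, the library low in SMARCA4, was therefore ordinary for SMARCB1, and ESO-26, the library without SMARCB1, ranked 3 of 9 for SMARCA4.

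**Figure D3:**
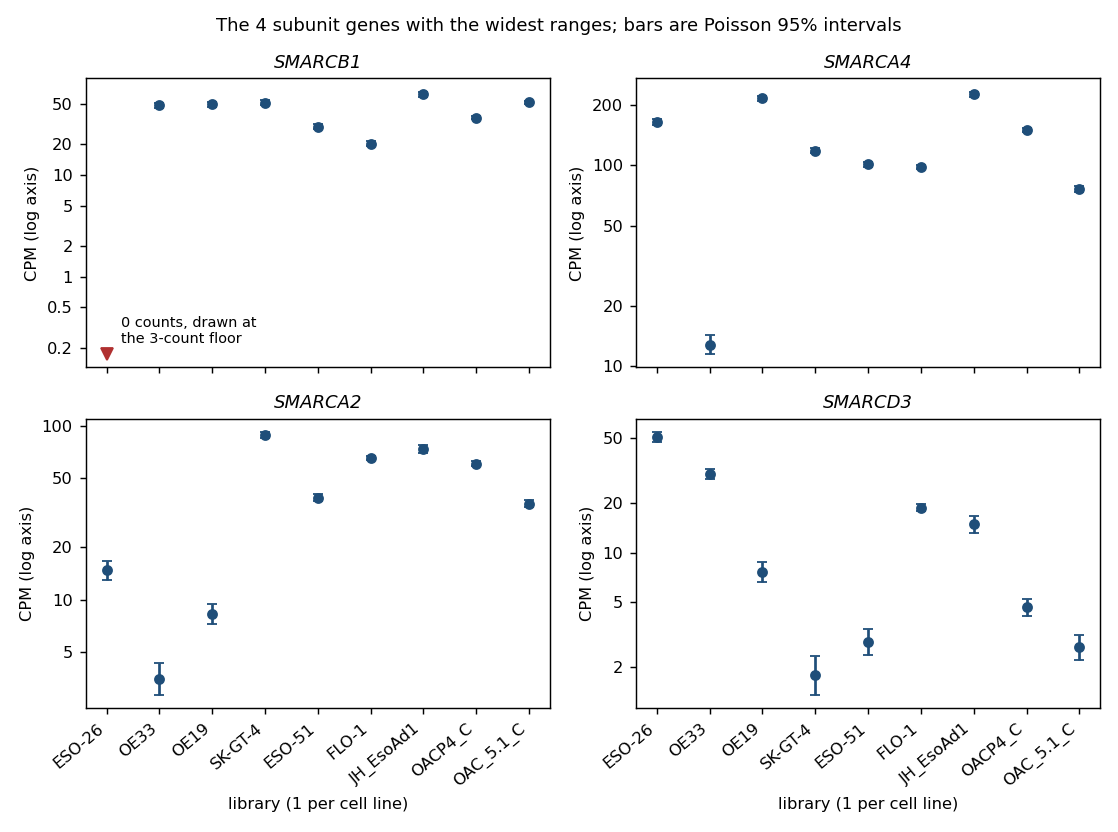
CPM (log axis) of SMARCB1, SMARCA4, SMARCA2 and SMARCD3 in each library, with Poisson 95% intervals. The triangle marks 0 counts in ESO-26, drawn at the 3-count floor of 0.173 CPM, and SMARCA4 in OE33 is the lone low point at 12.7 CPM.

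Genes beside SMARCB1 on chromosome 22 also had next to no reads in ESO-26. Neighbours were taken as protein-coding genes at 5 CPM or more in at least 8 libraries, which leaves out genes of lower level lying between them. Of the 19 reported, the 4 closest before SMARCB1 were all at or under 2 counts: CHCHD10, a mitochondrial protein gene, had 1 count, the kinase gene BCR had 2 counts, the topoisomerase gene TOP3B had 0 and the phosphatase gene PPM1F had 1. Their lowest levels among the other libraries were 6.87 CPM for CHCHD10, 51.0 for BCR, 11.2 for TOP3B and 11.3 for PPM1F. Genes farther out on both sides had reads: in ESO-26 PPIL2 had 22.1 CPM, where the other libraries had a median of 36.9 CPM, and DDT had 25.03 CPM, where they had 21.8 CPM. These 4 neighbours were low by a gap, that is at least 2 on the log2 scale (4-fold) under the lowest other library with that library at 5 CPM or more, and in ESO-26 2.13% of genes were. Over the 19 neighbours, 7 lay at least 2-fold below the median of the other libraries and 1 above, with 20.4% and 12.7% of all genes in ESO-26 doing so.

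A count of every gene from PPM1F to DERL3 with a median of at least 1 CPM in the other 8 libraries, made after these values were seen, traced how far the loss of reads went. These 12 genes had 4 counts in all in ESO-26, against 6366 to 19178 counts in the other libraries. The next gene past DERL3 at that level, SLC2A11, had 59 counts (3.40 CPM, against a median of 5.12 CPM). Farther on, the noncoding gene AP000350.6 again had 0 counts, against a median of 1.69 CPM, and DDTL had 69 counts (3.98 CPM, against 5.32 CPM). Reads thus did not return at every gene past DERL3. RNA counts show missing transcripts over adjacent genes, and the DNA of the line was not analysed here.

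The neighbourhood of SMARCA4 on chromosome 19 looked different in OE33. None of the 19 neighbours reported was low by a gap, and 0.572% of all genes in OE33 were. Their median difference was 0.38 on the log2(CPM + 1) scale, with 2 genes at least 2-fold below and 3 above. Of all expressed genes, 15.6% lay that far below in OE33 and 13.2% above. TIMM29, next to SMARCA4 on one side, had 17.1 CPM in OE33, against a median of 10.03 CPM in the others. SPC24, a kinetochore gene on the other side, had 37.9 CPM, against 30.3 CPM. Among these 20 genes SMARCA4 alone met the gap criterion in OE33. So few genes of that library met it that a neighbourhood without any is near the share over all genes.

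**Figure D4:**
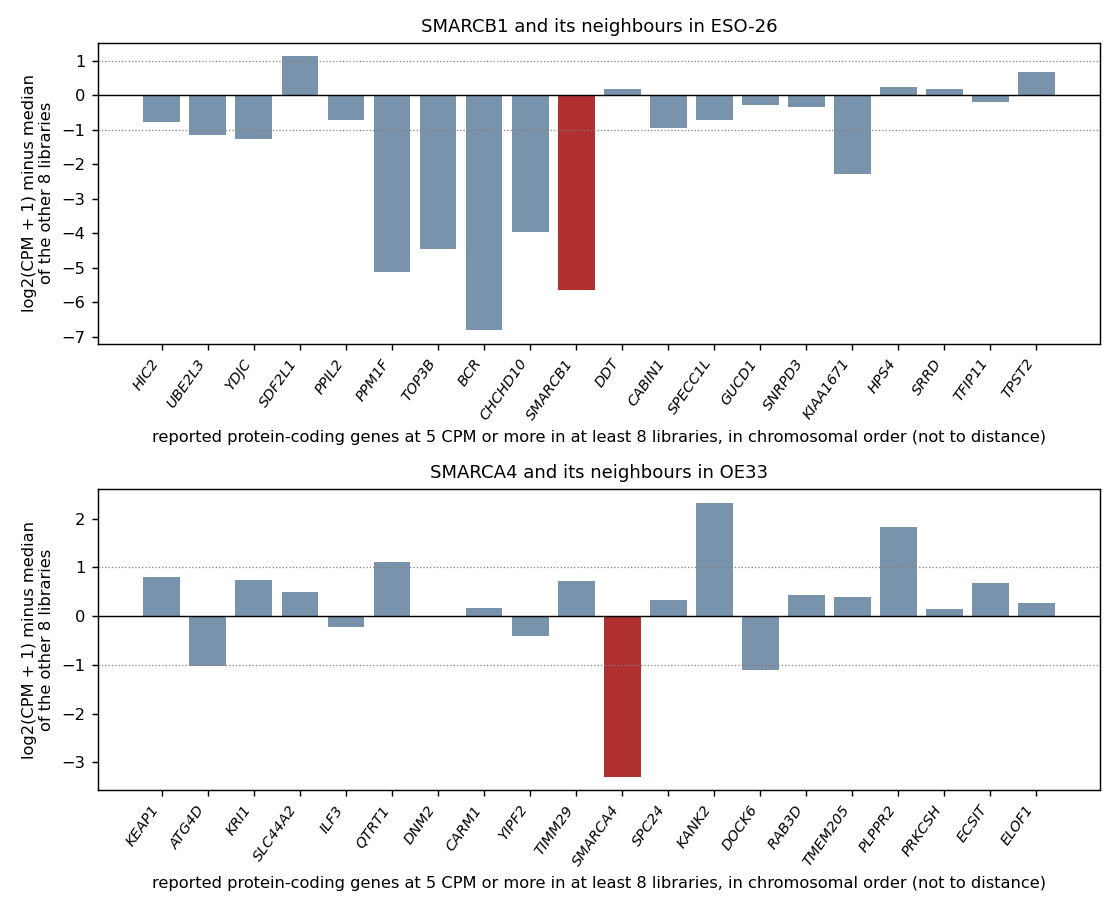
Difference on the log2(CPM + 1) scale from the median of the other 8 libraries for SMARCB1 and its neighbours in ESO-26 (top) and for SMARCA4 and its neighbours in OE33 (bottom), in chromosomal order. Red bars are SMARCB1 (-5.64) and SMARCA4 (-3.29), and the dotted lines mark 2-fold. The 4 bars to the left of SMARCB1 run from -3.96 to -6.81, and no neighbour of SMARCA4 shown lies below -1.10.

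SMARCC1 (BAF155), a scaffold on which the core is assembled, had the most even level of the 10. It ranged from 109 CPM in OE19 over a median of 145 CPM to 200 CPM in OE33, and its range of 0.87 on the log2 scale lay at percentile 2.01 of 12899 expressed genes. SMARCC2 (BAF170), its partner scaffold, ranged from 40.2 CPM in ESO-26 over a median of 69.7 CPM to 98.1 CPM in OACP4_C. ESO-26, which had no SMARCB1 reads, was thus also the lowest for SMARCC2, with FLO-1 next at 60.2 CPM and no overlap of their intervals. Its difference of -0.95 from the other libraries fell short of 2-fold. Per deposited length, the ratio of SMARCC1 to SMARCC2 was 4.93 in ESO-26, against 1.59 to 2.96 in the other libraries. With the longest protein-coding transcript as the length the ratio was 2.42, against 0.781 to 1.45.

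SMARCD3 (BAF60C), a core subunit known from heart and muscle development, was highest in ESO-26 and OE33. Its level was 50.9 CPM in ESO-26, then 30.2 CPM in OE33, then 18.8 in FLO-1 and 14.9 in JH_EsoAd1. The remaining libraries held 7.66 CPM in OE19, 4.64 in OACP4_C, 2.87 in ESO-51, 2.65 in OAC_5.1_C and 1.80 in SK-GT-4. Only at the low end did neighbouring intervals overlap, between ESO-51 and OAC_5.1_C and between OAC_5.1_C and SK-GT-4. SMARCD3 lay at least 2-fold above the median of the other libraries in ESO-26 (2.89), OE33 (2.16), FLO-1 (1.5) and JH_EsoAd1 (1.19), and at least 2-fold below in 4 others. In the deposited FPKM, again with 1 added, ESO-26 alone stayed past 2-fold (1.76), OE33 (0.97) and FLO-1 (0.54) stayed above by less, JH_EsoAd1 turned to -0.13, and the 4 low libraries lay between -0.31 (SK-GT-4) and -0.07 (OACP4_C). The FPKM of SMARCD3 were small, from 0.0934 in SK-GT-4 to 3.23 in ESO-26, with 1.45 in OE33 and 0.819 in FLO-1. The added 1 thus made these differences smaller. Of the 15 alternative settings, SMARCD3 was under 2-fold in 8 for OACP4_C and in 7 for JH_EsoAd1. Epithelial markers were 2-fold below in 11 of 11 genes in ESO-26 and in 8 of 11 in OE33, in 1 of 11 in FLO-1 and in 6 of 11 in JH_EsoAd1, which ranked next for SMARCD3, and in 4 of 11 in OE19, which was not high for it. Of all expressed genes 20.4% lay 2-fold below in ESO-26, 15.6% in OE33, 8.16% in FLO-1, 8.11% in JH_EsoAd1 and 16.2% in OE19. The part of the epithelial markers in the SMARCD3 level was not tested.

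SMARCD2 was the main SMARCD gene by length-scaled level in every library. It supplied 64.4% (JH_EsoAd1) to 89.5% (ESO-51) of the sum of SMARCD1, SMARCD2 and SMARCD3 in CPM per kb of deposited length. SMARCD3 supplied 14.4% in ESO-26, 11.5% in OE33 and 8.84% in FLO-1, and as little as 0.638% in SK-GT-4. In ESO-26 SMARCD3 exceeded SMARCD1, which supplied 6.86% there. With transcript lengths SMARCD3 supplied 25.2% in ESO-26 and 20.4% in OE33, and SMARCD2 still led in all 9 libraries.

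ARID1A (BAF250A), the DNA-binding subunit of BAF, was expressed in every library. It ranged from 42.2 CPM in FLO-1 over a median of 82.5 CPM to 155 CPM in SK-GT-4. No value reached 2-fold from the median of the other libraries, although SK-GT-4 above (0.999 on the log2 scale) and FLO-1 below (-0.99) came close. ARID1B, the alternative BAF subunit, ranged from 53.5 CPM in OAC_5.1_C over a median of 69.6 CPM to 124 CPM in ESO-51. Per deposited length ARID1A stood between 0.831 times ARID1B in FLO-1 and 2.54 times in SK-GT-4. Neither gene was lowest in ESO-26 or OE33, where ARID1A had 70.6 and 86.9 CPM.

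The PBAF subunits were likewise present throughout. PBRM1 (BAF180), a protein with several bromodomains that bind acetylated histones, ranged from 49.97 CPM in OE19 over a median of 89.1 CPM to 114 CPM in OE33. BRD7, a bromodomain protein of PBAF, ranged from 57.1 CPM in FLO-1 over a median of 77.6 CPM to 134 CPM in OACP4_C. Neither reached 2-fold in any library. Some reads of BRD7 may be shared with its pseudogene BRD7P2, since 14.9% of the 50-base windows of BRD7 also occur there, and BRD7P2 itself held 2.63 to 9.02 CPM.

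Over the 10 genes, SMARCA4 and SMARCB1 were low by a gap in a library, and no gene was high by a gap. Among all genes that could be called, 4.48% were low by a gap in some library and 7.45% were high. In 10 of 90 gene and library pairs (11.1%) a subunit lay at least 2-fold below the median of the other libraries, and in 6 of 90 (6.67%) at least 2-fold above. Over all expressed genes 12.7% of pairs were below and 13.5% above, so the share of low pairs was near the background and that of high pairs was under it. SMARCA4, SMARCA2, SMARCB1 and SMARCD3 (4 of 10) varied at least 4-fold between their lowest and highest library, as 56.6% of all expressed genes did. The other 6 never passed 2-fold, and the median range of the 10 was 1.56 on the log2 scale, against 2.20 over all expressed genes.

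Without ESO-26 and OE33 the picture of the 10 genes was flatter. No subunit was then low by a gap, and SMARCA2 and SMARCD3 were the 2 that still varied at least 4-fold. The range of SMARCA4 over the remaining 7 libraries was 1.56 and that of SMARCB1 1.57 on the log2 scale. Among pairs of subunits over the 9 libraries, SMARCB1 and SMARCC2 had the highest Pearson correlation (r = 0.84), which was 0.54 over the 8 libraries other than ESO-26. SMARCC1 and PBRM1 were next with r = 0.75, and had 0.69 over the 7 libraries without ESO-26 and OE33. Over those 7 the highest were SMARCC1 and BRD7 (r = 0.92, 0.52 over 9) and SMARCA4 and SMARCC2 (0.80, -0.16 over 9). SMARCA4 and SMARCA2 had r = 0.52 over 9 libraries and -0.27 over those 7.

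A further 19 genes encode other subunits of the complex, and 16 of them reached 5 CPM in at least 2 libraries. Of 171 gene and library pairs 9 (5.26%) lay at least 2-fold below the other libraries and 14 (8.19%) above, under the 12.7% and 13.5% of all expressed genes. ARID2, the PBAF subunit, was the 1 gene low by a gap: it had 2 counts (0.0643 CPM) in SK-GT-4, where 0.693% of genes were low by a gap and its lowest level elsewhere was 35.8 CPM, and it reached 331 CPM in ESO-51. BRD9, the bromodomain subunit of non-canonical BAF, had 254 CPM in FLO-1 (log2 difference 2.22) and 19.2 CPM in SK-GT-4 (-1.48). BICRAL, a scaffold gene of that same assembly, had 4.84 CPM in ESO-26 (-2.29) and 104 CPM in SK-GT-4 (1.99).

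Other subunits stood out in 1 or 2 libraries. DPF3, a histone-reading subunit, had 2.98 CPM in OAC_5.1_C (1.97), and DPF1, its relative, had 5.36 CPM in OE33 (1.65). Both are low-level genes that did not reach 5 CPM in at least 2 libraries. SMARCE1, a core subunit, was at 92.5 CPM in OAC_5.1_C and 90.4 CPM in JH_EsoAd1, and SMARCD1 was at 116 CPM in JH_EsoAd1. In OE33 no other subunit lay 2-fold below and DPF1 and SS18 lay above, with 15.6% of all genes in that library below and 13.2% above. In ESO-26 BICRAL and BCL7A were the 2 below and none was above, with 20.4% of all genes in that library below and 12.7% above. The alternative actin-related subunit ACTL6B, known from neurons, was at or under 0.480 CPM in every library.

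**Figure D5:**
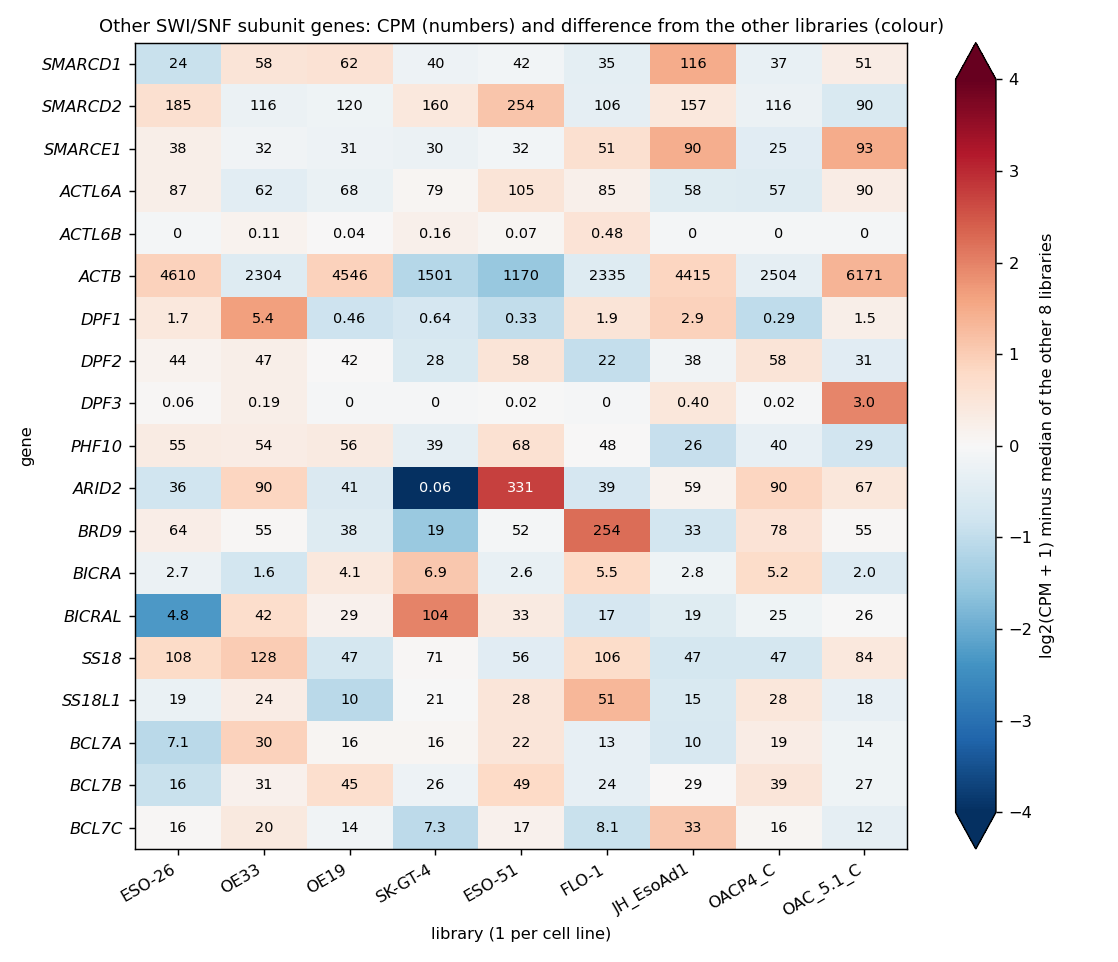
Levels of the 19 other subunit genes (rows) in the 9 libraries (columns). Numbers are CPM and the colour is log2(CPM + 1) minus the median of the other 8 libraries, cut off at 4 in either direction. ARID2 in SK-GT-4 (2 counts) is the deepest blue cell, and ARID2 in ESO-51, BRD9 in FLO-1 and BICRAL in SK-GT-4 are the strongest red cells.

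Among 17 ATPase genes of other chromatin remodellers, 14 of 153 pairs (9.15%) lay at least 2-fold below and 14 (9.15%) above, against 12.7% and 13.5% over all expressed genes, and none was low by a gap. SMARCA1 (SNF2L), an ATPase of the ISWI family, was highest in OE33 at 201 CPM (2.55) and next in ESO-26 at 165 CPM (2.27), and was 5.64 CPM in FLO-1. Its close relative SMARCA5 (SNF2H) stayed within 2-fold in every library. SRCAP, an ATPase that exchanges histone H2A variants, was lowest in ESO-26 at 12.8 CPM (-2.70). CHD5, a neural remodeller, reached 23.5 CPM in OE19 (3.23) and 13.3 CPM in OE33 (2.45), and HELLS had 16.5 CPM in ESO-51 (-2.45).

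Genes of Polycomb repressive complex 2, which is known to oppose SWI/SNF at many genes, had a median range of 1.62 on the log2 scale, against 1.56 for the 10 subunits. Of 90 pairs for 10 genes, 5 (5.56%) lay at least 2-fold below and 2 (2.22%) above, against 12.7% and 13.5% over all expressed genes. None of these pairs was in ESO-26, OE33 or SK-GT-4. EZH2, the methyltransferase of this complex, was at 33.2 CPM in the library of ESO-26 and at 40.2 CPM in that of OE33. PHF19 in OE19 (18.1 CPM, -2.10) was the lowest against the other libraries.

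A list of 12 genes that are read as markers in tumours or lines lacking SWI/SNF subunits was then set against the libraries. In ESO-26 8 of the 12 lay at least 2-fold below the median of the other libraries and 2 above. There 20.4% of all expressed genes lay below and 12.7% above. In OE33 4 of the 12 lay below and 3 above, with 15.6% and 13.2% of all expressed genes doing so. Elsewhere 1 to 5 of the 12 lay below and 0 to 5 above. CD44, an adhesion receptor, had 0.231 CPM in ESO-26 (4 counts), but 289 CPM in OE33. CDH1, the gene of E-cadherin, had 0.173 CPM in ESO-26 (3 counts) but 21.5 CPM in OE33, and EPCAM had 0.189 CPM in OE33 (5 counts). SALL4, an embryonic transcription factor, was highest in ESO-26 at 12.2 CPM. Of the 12 genes, CDH1, CLDN4, EPCAM, KRT8 and KRT18 are also among the epithelial markers, so the list does not separate a missing subunit from the low epithelial transcripts of ESO-26 and OE33, and with 1 library each the 2 cannot be told apart.

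For each subunit that varied at least 4-fold, the 3 genes closest in pattern over the 9 libraries were found among 11563 protein-coding genes. They were MTHFD2L, CTSC and RAP1GDS1 for SMARCA4 (r = 0.97, 0.96 and 0.93), and over the 8 libraries other than OE33 their r was 0.83, 0.77 and 0.53. For SMARCB1 they included DSP and S100A11 (r = 0.98 each), with 0.71 and 0.62 over the 8 libraries other than ESO-26. The SMARCA4 and SMARCB1 values thus rest largely on 1 library each. For SMARCA2 they were MKKS, JPH1 and LRRC45 (r = 0.95, 0.95 and 0.94), with 0.91, 0.90 and 0.93 without OE33. For SMARCD3 they were ITSN1, GALNS and THBS3 (r = 0.97, 0.96 and 0.95), with 0.97, 0.95 and 0.93 without ESO-26. SMARCA2 was also low in OE19 and ESO-26, and SMARCD3 also high in OE33. Leaving out 1 library therefore left part of the pattern by which these genes were picked. All the genes named here have the highest of many correlations over 9 points.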

How the data were processed

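Total RNA of 9 cell lines was sequenced, with 1 library column per line. The submitters' processing notes name STAR 2.6.1d, FastQC 0.11.7, R 3.6.1 and build GRCh37. The counting program, annotation release and strand setting are not given in the sources used here, so overlapping and antisense genes cannot be told apart. The deposited table holds raw counts for 52158 gene symbols. A row without a name, at 0.00485% to 0.00965% of counts, was dropped. The separate files deposited per line hold counts and FPKM for 57905 identifiers with a gene length, per the file headers, and 48313 of the 49585 identifiers matched to the table (97.4%) had equal counts in both, among them all 10 subunits. Column OACM5.1_C stands for OAC_5.1_C, whose own file has the same counts. From the values, the authors' FPKM divides by the sum of all counts in a file, of which 25.8% (OE19) to 77.3% (JH_EsoAd1) lie outside the table.

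Under R 4.3.3, edgeR 4.0.16 gave TMM factors for the counts (from genes at 1 CPM or more in at least 2 libraries), and values were used as log2(CPM + 1). Expressed genes are the 12899 at 5 CPM or more in at least 2 libraries. A gene was low by a gap in a library when at least 2 under the lowest other on the log2 scale, with that lowest at 5 CPM or more, and high by a gap in the mirrored way. It was 2-fold below or above when at least 1 from the median of the other 8. A range of at least 2 counted as 4-fold. Poisson 95% intervals are exact, and the floor is 3 counts. No test between lines was run, since each has 1 library. The rules were tested on simulated data. Subunits, gene lists, markers and rules were chosen with earlier results of these data known. Genes named are the 10 subunits, up to 8 per list by size of difference among those past 2-fold, the 10 nearest protein-coding genes at 5 CPM or more in at least 8 libraries on each side, the 3 closest patterns, with some genes these rules select not reported here, and a few genes chosen after their values were seen (EZH2, SMARCA5, ACTL6B, DERL3 and SLC2A11 among them). GENCODE 29 gave names, biotypes, gene order and transcript lengths, and RefSeq gave promoter sequences. Both are on another build than the files, so no coordinates of the files are given. Library size alone would move the median gene by -0.26 (JH_EsoAd1) to 0.14 (ESO-51) on the log2 scale. The remaining steps used pandas 2.3.3, numpy 2.4.6 and scipy 1.17.1 under Python 3.11.15, and matplotlib 3.10.9 for plots. Alternatives were library size alone, DESeq2 1.42.0 size factors, a pseudocount of 5, a minimum of 1 CPM, deposited FPKM and each library left out, protein-coding genes as the background, and 3 were added after seeing the data: the second counting mode, transcript lengths, and every gene of the run beside SMARCB1.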

Additional observations from a re-analysis of the deposited data

How the results depend on the processing

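No paired analysis was possible because each line has 1 library. The count of subunits low by a gap stayed at 2 with library size alone, DESeq2 size factors, a pseudocount of 5, a minimum of 1 CPM and the second counting mode. It was 0 with deposited FPKM, where the minimum of 5 is set on length-scaled values. There the lowest other library is at 2.08 for SMARCA4 and 2.50 for SMARCB1. With 1 added before the log, SMARCA4 in OE33 (FPKM 0.360) and SMARCB1 in ESO-26 (FPKM 0) also fell short of the gap of 2. Leaving out 1 library at a time the count ranged from 1 to 2, with 1 without ESO-26 and 1 without OE33, and without both it was 0. Subunit pairs at least 2-fold above numbered 3 with deposited FPKM, and without both libraries 3, with 4 below and 2 genes over a 4-fold range. For the other subunits, pairs below numbered 5 with a pseudocount of 5, 5 without both libraries and, leaving out 1 library at a time, 5 to 9, with 5 without ESO-26. Pairs above numbered 9 with a pseudocount of 5 and 7 with deposited FPKM. Of the 16 subunit pairs past 2-fold, 14 kept their sign in every setting and 5 stayed past 2-fold in every setting. The deposited FPKM setting adds 1 to values that reach only 4.24 for SMARCA2 and 3.23 for SMARCD3, which makes their differences smaller. With deposited FPKM the sign turned for SMARCA4 (-0.52) and SMARCD3 (-0.13) in JH_EsoAd1. The FPKM divides by all counts in a file, and 77.3% of those of JH_EsoAd1 lie outside the table. In the other libraries this share is 25.8% to 51.0%. Its part in the turn of sign was not tested. Over protein-coding genes alone, 4.57% were low and 7.37% high by a gap in some library, 57.2% varied at least 4-fold, and 13% of pairs were below and 13.7% above. Depth limits low counts: 3 counts are 0.0400 CPM in FLO-1 and 0.173 CPM in ESO-26, and intervals cover counting error only.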
